A study of Xerophyta schlechteri with 51 samples.

Results

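Leaf tissue that had dried out and been rewatered for 48 h was compared with leaf tissue that had never been dried, in the non-senescent part of leaf blades of Xerophyta schlechteri. The comparison rests on 6 of the 51 libraries of the series, chosen by their labels alone. These are 3 libraries of non-senescent tissue (NST) after rehydration and 3 of NST at full turgor. The other libraries cover drying and recovery of NST, of senescent tissue (ST) and of pre-senescent tissue (PST), in 17 groups of 3. Of these, the report uses NST at 75%, 55%, 35% and <10% relative water content (RWC, measured against a fully turgid leaf), rehydrated PST, rehydrated ST, and ST at full turgor. The full turgor groups are called undried below, the <10% group is called dry, and stage names follow the labels, which give the NST's water content. The labels name no genotype and no plant of origin, and state that water content varied among rehydrated leaves, with values per library not used here. P-values of genes therefore reflect the spread among libraries within groups, pooled over all 51 libraries, and no more. Some of that spread may be technical.

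Xerophyta species are resurrection plants, whose leaves survive the loss of nearly all cell water and resume metabolism when water returns. They are poikilochlorophyllous: the drying leaf breaks down its chlorophyll and dismantles its thylakoid membranes, and the rewatered leaf has to rebuild both. Tissue near the leaf tip often does not recover and senesces, while the tissue below it survives. The table pairs no gene ID with a name, so neither the labelled tissue nor any gene group could be checked against known markers, and genes are described here by their level and by what they did in drying.

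Expression was given as FPKM, which counts fragments per kilobase of transcript and scales them by library size. The fragments behind 1 unit of FPKM, set to 1 for the undried mean, were fewer in rehydrated NST libraries. They were 0.490, 0.490 and 0.736 in rehydrated replicates 0, 1 and 2, against 1.10, 0.900 and 1.00 in undried replicates 0, 1 and 2. These values also depend on how FPKM was scaled, so they do not show that rehydrated libraries held fewer fragments in all. Genes at 1 FPKM or more numbered between 15834 and 15979 in rehydrated libraries and between 15825 and 16073 in undried ones, which overlap. Genes listed at 0 numbered 2140 to 3179 in rehydrated libraries and 1648 to 1909 in undried ones. The FPKM of a library summed to 894958 ± 94702 in rehydrated and 568182 ± 70773 in undried NST (SD, n = 3 each), a difference with an exact permutation p of 0.1, the smallest that 3 against 3 allow. Rehydrated replicates 0 and 1 were far closer to each other than any other 2 libraries of 1 group. Over genes at 50 FPKM or more, the SD of their log2 ratio was 0.171, where the next closest of the 51 within-group pairs had 0.442 and the median pair 0.667. They were not shown to be the same library, so both were kept, and the leading counts are also given with the pair averaged and counted as 1 library.

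After 48 h of water, the transcriptome of NST was nearest to that of the undried leaf but not the same. Each of the 3 rehydrated libraries lay nearer to undried NST than to any other of the groups, with a root mean square log2 distance of 1.13, 1.14 and 0.882. The next nearest group was ST at full turgor, at 1.23, 1.24 and 0.952, and dry NST lay at 1.99, 1.99 and 1.72. From the mean of the other libraries of their own group, undried replicates 0, 1 and 2 lay at 0.614, 0.564 and 0.567. Rehydrated replicates 0, 1 and 2 lay at 0.539, 0.536 and 0.822 from theirs. Rehydrated replicate 2 was thus nearly as far from its own group as from undried NST. Of the 18717 genes tested, 9881 (52.8%) lay within 0.5 of the undried mean on the log2(FPKM + 1) scale.

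With limma and a Benjamini-Hochberg adjusted p under 0.05, 1678 genes (8.97%) were higher in rehydrated than in undried NST and 1510 (8.07%) were lower, 17% of those tested in all. With replicates 0 and 1 averaged, the counts were 949 higher and 825 lower, of which 947 and 823 were among the genes above. Leaving out 1 library lowered the counts over 1.5-fold in 3 cases, to 991 higher and 888 lower without rehydrated replicate 0, 941 and 842 without rehydrated replicate 1, and 1101 and 981 without undried replicate 1. Which direction led depended on low values, since a pseudocount of 0.1 gave 1204 higher and 1353 lower genes, and a filter of 5 FPKM gave 1211 and 1243. The change was at least 1 on the log2 scale in 1287 higher and 1114 lower genes, at least 2 in 441 and 352, and at least 4 in 47 and 34. By level, 19.6% of genes with a mean under 5 FPKM passed the threshold, 14.7% of those at 5 to 20, 15.3% of those at 20 to 100, and 20.8% of those at 100 FPKM or more. In whole tissue, fewer cells of a type and less RNA per cell cannot be told apart.

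Set against drying, most genes of the drying response no longer differed from undried NST past the threshold. Of the 4149 genes (22.2% of those tested) that rose in dry NST, 3596 (86.7%) no longer differed from undried NST past the threshold, and 3056 of those had passed it in the fall from the dry leaf. Of the 5543 genes (29.6%) that fell in dry NST, 4154 (74.9%) no longer differed, and 3382 of those had passed the threshold in the rise from the dry leaf. Over all tested genes, only 17% differed between rehydrated and undried NST, so a large share not differing is not particular to the drying genes. A gene that misses the threshold is not shown to have returned. Within 0.5 of the undried mean lay 58.8% of the genes that rose, 45.4% of those that fell and 52.8% of all tested genes. The median standard error was 0.371. The contrasts of dry and of rehydrated NST share their undried libraries, so the same counts were taken with drying measured from ST at full turgor. Of 4069 genes (21.7%) that rose on that measure, 9.22% were still higher and 4.25% lower after recovery, and of 5316 (28.4%) that fell, 14.7% were still lower and 8.45% higher. Over all tested genes, 8.97% were higher and 8.07% lower after recovery. Of these shares, only that of the still lower genes stood well above the share over all genes.

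**Figure D1:**
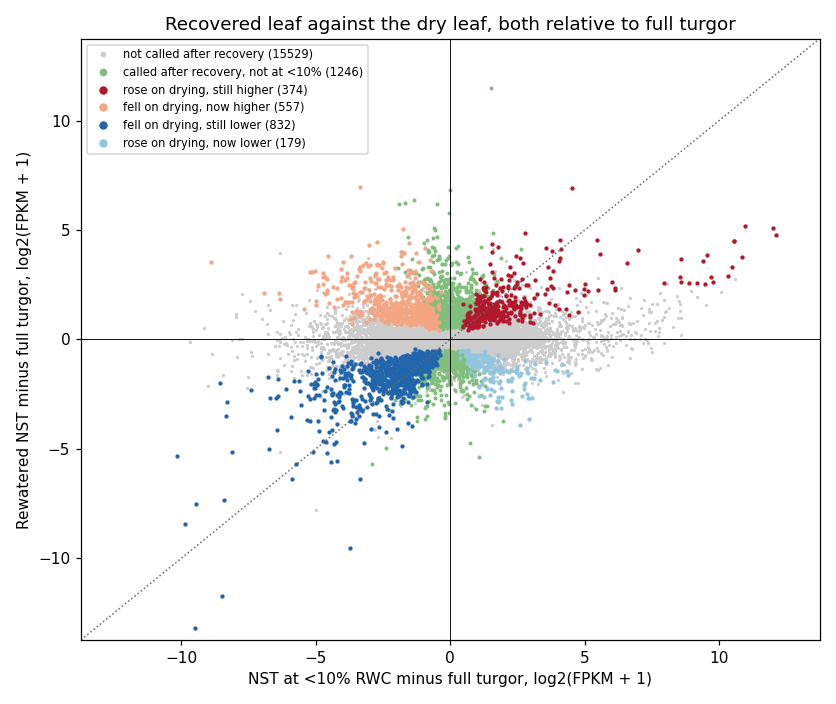
Each point is 1 of the 18717 genes tested, with its log2(FPKM + 1) difference from undried NST in dry NST on the x axis and in rehydrated NST on the y axis. The undried libraries enter both axes. Most points lie near the horizontal line at 0, the 374 still higher and 832 still lower genes lie in the upper right and lower left, and the 557 and 179 overshooting genes in the other corners.

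As counted here, the incomplete return was mostly of genes that drying had lowered. A total of 832 genes fell in dry NST and were still lower in rehydrated NST. They were 55.1% of all genes lower after recovery, where 29.6% of all tested genes fell in dry NST. Against them stood 374 genes that rose in dry NST and were still higher, 22.3% of all genes higher after recovery. That share is near the 22.2% of all tested genes that rose in dry NST. The libraries did not overlap in 768 of the 832 and 368 of the 374 genes, where over all tested genes 20.7% lay below and 21% above without overlap, from the same contrast that chose the classes. With replicates 0 and 1 averaged, 525 genes were still lower and 210 still higher. Leaving out rehydrated replicate 0 gave 553 still lower and 227 still higher genes, and leaving out rehydrated replicate 1 gave 534 and 209. The still higher genes numbered 223 and 236 without undried replicates 1 and 2, and 567 with only the compared libraries in each fit. The lean toward still lower genes depended on low values and on the fit. A pseudocount of 0.1 gave 557 still lower and 398 still higher genes. Still lower genes were 69% of those not returned here, 58.3% with that pseudocount and 59.7% with only the compared libraries.

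Over the still lower set, the median of the gene means was 2.94 FPKM in rehydrated NST, 1.25 FPKM in dry NST and 12.6 FPKM in undried NST. Its median log2 difference was -1.49 in rehydrated NST and -1.87 in dry NST, both against undried NST. Against the dry leaf, 250 of the 832 genes had come part of the way back past the threshold, 553 did not pass it, and 29 had fallen further. Over all tested genes, 30.7% were higher and 23.8% lower in rehydrated than in dry NST. Across the stages the mean of the library medians was -1.29 at 75%, -1.60 at 55%, -1.93 at 35% and -1.88 at <10% RWC, so most of the fall was in place at the first loss of water. In the rehydrated libraries 0, 1 and 2 the medians were -1.58, -1.59 and -1.25. This class and those below were chosen on the rehydrated and undried libraries. The direction of their medians and shares between those libraries therefore follows from the choice. Leaving out 3 entries listed at 0 in rehydrated NST, which are described further on, these genes held 1.38% ± 0.273 of the summed FPKM in rehydrated NST and 9.50% ± 0.511 in undried NST (SD, n = 3 each).

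The still higher set was at a median of 28.6 FPKM in rehydrated NST, 41.0 FPKM in dry NST and 9.30 FPKM in undried NST. The median log2 difference from undried NST was 1.36 in rehydrated and 1.54 in dry NST. Of the 374 genes, 89 had moved back from the dry level past the threshold, 266 did not pass it, and 19 had gone higher than in the dry leaf. The share of summed FPKM held by the set shows what the median does not: it was 2.82% ± 0.303 in rehydrated NST, 17.9% ± 3.14 in dry NST and 1.30% ± 0.0961 in undried NST (SD, n = 3 each). The summed level of the set had thus fallen well below that of the dry leaf, while the median difference had changed little.

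More genes overshot upward than downward, where more genes had also fallen than risen in dry NST. A total of 557 genes fell in dry NST and then stood above the undried level in rehydrated NST. They were 33.2% of all genes higher after recovery, where 29.6% of all tested genes fell in dry NST. A further 179 genes rose in dry NST and then stood below the undried level. They were 11.9% of all genes lower after recovery, where 22.2% of all tested genes rose in dry NST. The upward share was thus little above that over all tested genes, and the downward share was below it. The rehydrated libraries lay above all undried ones in 428 of the 557 upward genes and below them in 167 of the 179 downward genes. Over all tested genes 21% lay above and 20.7% below without overlap, from the same contrast that chose the classes. The remaining overshoot genes overlapped the undried libraries. With replicates 0 and 1 averaged the counts were 321 up and 68 down. Upward genes numbered 333 and 319 without rehydrated replicates 0 and 1, and 345 without undried replicate 1. The downward count was the less stable: it was 78 without either of rehydrated replicates 0 and 1, and 105, 69 and 98 without undried replicates 0, 1 and 2. The upward share of the overshoot depended on low values and on scaling: it was 75.7% here, 63.1% with quantile normalization, and 54.8% with a pseudocount of 0.1, which left 276 genes up and 228 down.

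The upward overshoot set was nearly silent in the dry leaf. The median of its gene means was 18.2 FPKM in rehydrated NST, 0.350 FPKM in dry NST and 5.34 FPKM in undried NST. The median log2 difference was 1.43 between rehydrated and undried NST and 3.25 between rehydrated and dry NST. The mean of the library medians relative to undried NST was -1.26 at 75%, -1.46 at 55%, -1.50 at 35% and -1.64 at <10% RWC, and 1.46 ± 0.56 after rehydration (SD, n = 3). Rehydrated replicates 0, 1 and 2 had medians of 1.77, 1.81 and 0.818, so replicate 2 overshot less, and in all 8 classes of changed genes it lay nearer to the undried level than replicates 0 and 1. The set held 21.0% ± 2.38 of the summed FPKM in rehydrated NST and 0.386% in dry NST, against 4.46% ± 0.787 in undried NST (SD, n = 3 each).

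The downward overshoot set had a median of 6.43 FPKM in rehydrated NST, 52.7 FPKM in dry NST and 16.9 FPKM in undried NST. The median log2 difference was -1.23 between rehydrated and undried NST, and 27 of the 179 genes differed by 2 or more. Its rehydrated libraries 0, 1 and 2 had medians of -1.44, -1.45 and -0.768. In drying the mean of the library medians was 0.69 at 75%, 0.85 at 55%, 1.17 at 35% and 1.37 at <10% RWC, as the plot of class medians by stage shows.

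**Figure D2:**
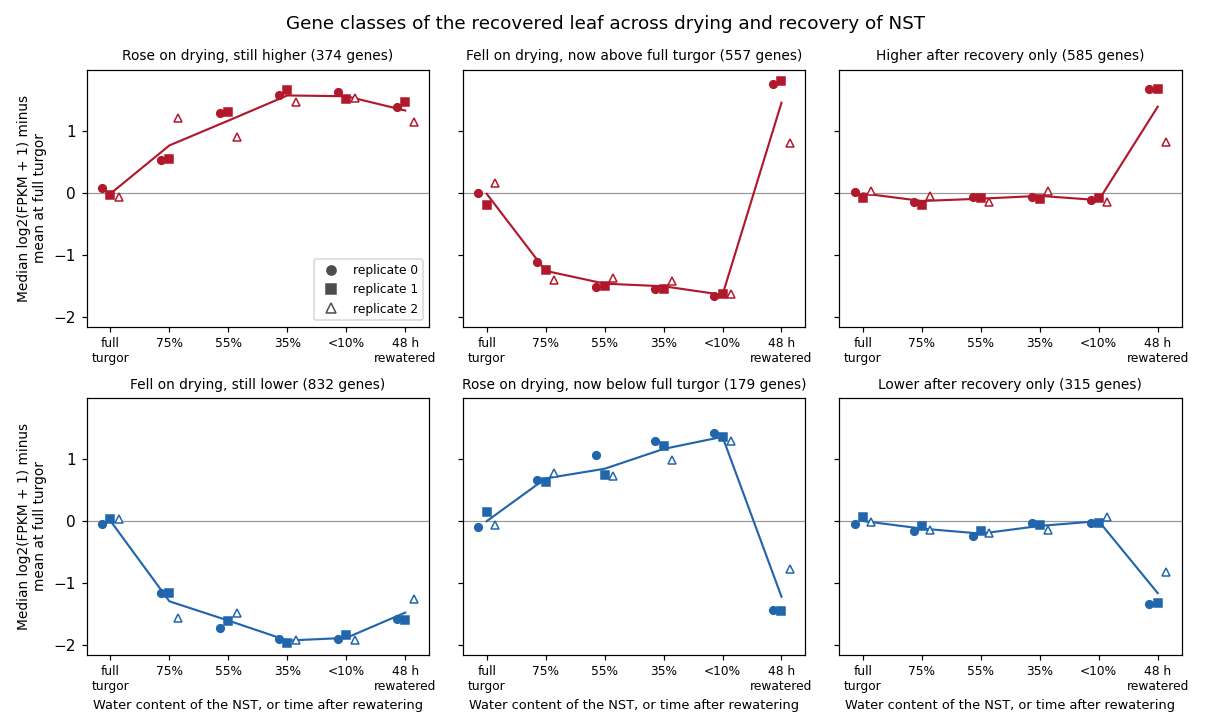
Each panel is 1 class of genes, the x axis gives the stages of NST in order, and the y axis the median over the class of log2(FPKM + 1) minus the undried mean. Points are libraries, lines join the means of 3 libraries, and replicate 2 after rewatering lies nearest to 0 in all 6 panels.

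Part of the differences passed the threshold after recovery only. A total of 585 genes were higher and 315 lower in rehydrated NST while passing the threshold at none of the 75%, 55%, 35% and <10% stages, which is 34.9% and 20.9% of the genes higher and lower after recovery. Those stages had 27%, 37.7%, 49.1% and 51.8% of tested genes past the threshold. The share of all tested genes past it at none of the stages was not taken. The 34.9% and 20.9% are therefore not shown to be more than that share. A gene that missed the threshold in drying is not shown to have been unchanged. With replicates 0 and 1 averaged, 323 and 137 were left. Without rehydrated replicate 0 the counts were 339 and 159, and without rehydrated replicate 1 they were 321 and 137. The lean toward higher genes depended on low values: a pseudocount of 0.1 gave 385 higher and 367 lower genes, a filter of 5 FPKM 336 and 275, and no filter 943 and 332. Quantile normalization gave 731 and 513. Requiring an unadjusted limma p of at least 0.05 at all of those stages, a rule added after the data were seen, left 448 higher and 213 lower genes. The higher genes were at low levels before recovery, with a median of 11.0 FPKM in rehydrated NST, 1.83 FPKM in dry NST and 1.88 FPKM in undried NST. They held 10.4% ± 0.32 of the summed FPKM in rehydrated NST and 1.98% ± 0.198 in undried NST (SD, n = 3 each). The lower genes were at a median of 5.27 FPKM in rehydrated NST, 13.6 FPKM in dry NST and 14.2 FPKM in undried NST. A remaining 162 higher and 184 lower genes had passed the threshold at 75%, 55% or 35% RWC but not in the dry leaf.

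The further a gene had fallen in drying, the more often it was still low after recovery. With drying measured from ST at full turgor, so that no library is shared, 9.63% of the 1028 genes that fell by less than 1 on the log2 scale were still lower. The share was 13.4% of the 2321 genes that fell by 1 to 2, 17.6% of the 1640 that fell by 2 to 4, and 24.8% of the 327 that fell by 4 or more. Overshoot did not follow the same course, with 8.75%, 9.00%, 8.17% and 4.89% of these genes above the undried level. Over all tested genes, 8.97% were higher and 8.07% lower after recovery. Overshoot of the fallen genes was thus near or below the share over all genes. Among genes that rose in drying, the share still higher was 8.98%, 9.11% and 8.61% in the first classes of size, again near the 8.97% over all tested genes. It was 13.2% of the 266 genes that rose by 4 or more. For those 266 genes the median distance left to the undried mean was 0.355, 0.424 and 1.05 in rehydrated replicates 0, 1 and 2, so replicate 2 stood furthest from the undried level here. These shares describe the genes, with no test between the classes of size. On the log2(FPKM + 1) scale only genes well above 0 when undried can fall far. The classes of size among fallen genes therefore also differ in undried level, and the shares were not matched for it.

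**Figure D3:**
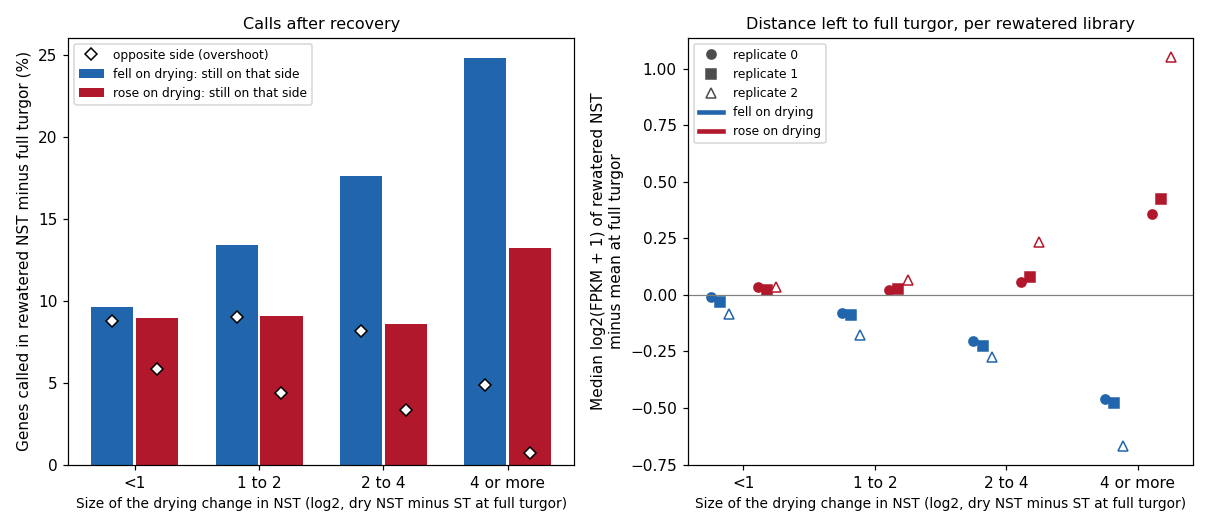
Left, bars give the percent of genes still on the drying side of the undried level and diamonds the percent on the opposite side, by the size of the drying change against ST at full turgor. Right, the median log2 distance of each rewatered NST library from the undried NST mean is shown for the same classes, and it is widest for changes of 4 or more.

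The recovered leaf had a different set of leading transcripts. Of the 20 most abundant genes in rehydrated NST, 0 were also among the 20 most abundant in dry NST and 2 among those in undried NST. Of these 20 genes, 17 were higher than in undried NST past the threshold and 0 lower, with a median log2 difference of 3.46. A set picked for its level in rehydrated NST is bound to lean upward, so these values describe it. The 17 were made up of 8 upward overshoot genes, 6 that differed after recovery only and 3 that had changed in mid-drying. The 20 genes held 28.9%, 30.4% and 23.4% of the summed FPKM in rehydrated replicates 0, 1 and 2 and 0.89% ± 0.168 (SD, n = 3) in dry NST, against 7.37%, 3.83% and 6.32% in undried replicates 0, 1 and 2. No rehydrated library overlapped an undried one.

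The 20 most abundant genes of undried NST held 11.2%, 11.2% and 9.19% of the summed FPKM in rehydrated replicates 0, 1 and 2, against 21.5%, 14.0% and 16.9% in undried replicates. These ranges do not overlap either. In rehydrated NST, 8 of these genes were lower past the threshold and 0 higher. Of those 8, 7 were still lower genes, and 2 were entries listed at 0 after recovery. A set picked for its level in undried NST is bound to lean downward, so these values too describe the choice. The 100 most abundant genes of undried NST held 33.4% ± 1.53 of the summed FPKM in rehydrated and 30.5% ± 5.6 in undried NST (SD, n = 3 each). Among the 100 most abundant genes the lists were closer, with 10 of the 100 in rehydrated NST also in the list of dry NST and 54 in that of undried NST.

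**Figure D4:**
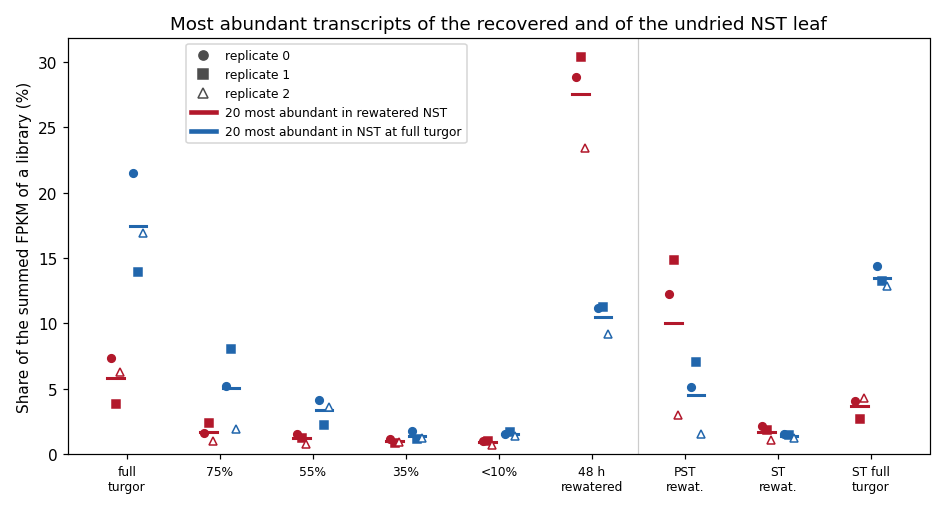
The y axis is the percent of a library's summed FPKM held by the 20 most abundant genes of rewatered NST (red) and of undried NST (blue), by stage of NST and in rewatered PST, rewatered ST and ST at full turgor. Points are libraries and bars are means of 3. The red genes stand at 23.4% to 30.4% in rewatered NST and below 10% in each NST library of the other stages.

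The 4 IDs named here carry the largest change of their class among genes above 0 in all 6 libraries with no overlap between the groups. They were chosen for the rehydrated against undried contrast, so their limma values there describe the choice.

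Xvis03_221527 led the upward overshoot. It had 29781, 35599 and 14598 FPKM in rehydrated NST replicates 0, 1 and 2 and 22.5, 14.3 and 18.0 FPKM in dry NST, against 244, 85.7 and 355 FPKM in undried NST. Each rehydrated library was above each undried and each dry one, and the gene ranked 2 in mean level in rehydrated NST and 264 in undried NST. The log2(FPKM + 1) difference between rehydrated and undried NST was 6.99 ± 1.29 (SE, limma adjusted p = 0.000139). In libraries the choice did not use, it had 8413, 8717 and 2061 FPKM in rehydrated PST, against 93.5, 91.7 and 286 FPKM in ST at full turgor, a difference of 5.29 (limma adjusted p = 0.0019). In rehydrated ST it had 1153, 446 and 55.2 FPKM, which overlap ST at full turgor, and the difference of 1.18 did not pass the test (limma adjusted p = 0.463).

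Xvis03_209240 led the genes that rose on drying and were still higher. It had 534, 542 and 776 FPKM in rehydrated NST and 166, 93.1 and 90.7 FPKM in dry NST, against 7.46, 2.64 and 2.94 FPKM in undried NST. The rehydrated libraries stood above the dry ones as well as the undried ones. The log2(FPKM + 1) difference was 6.94 ± 1.05 between rehydrated and undried NST (SE, limma adjusted p = 6.63e-06) and 2.43 ± 1.05 between rehydrated and dry NST (SE, limma adjusted p = 0.0481). Rehydrated PST had 555, 1045 and 406 FPKM and rehydrated ST 269, 378 and 270 FPKM, against 4.85, 0.1 and 0.74 FPKM in ST at full turgor. All 9 rehydrated libraries of the 3 tissue states lay above all undried ones.

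Xvis03_208703 led the genes still lower. It had 0.34, 1.03 and 28.1 FPKM in rehydrated NST and 0.13, 0.3 and 0 FPKM in dry NST, against 714, 639 and 1122 FPKM in undried NST. Replicate 2 stood above the dry level and far below the undried one, and replicates 0 and 1 were near the dry level. The log2(FPKM + 1) difference between rehydrated and undried NST was -7.54 ± 0.69 (SE, limma adjusted p = 3.07e-10). It had 0.85, 3.28 and 1.09 FPKM in rehydrated PST and was listed at 0 in each library of rehydrated ST, against 760, 775 and 814 FPKM in ST at full turgor.

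Xvis03_210706 led the downward overshoot. It had 0.42, 0.54 and 18.4 FPKM in rehydrated NST and 281, 471 and 251 FPKM in dry NST, against 69.0, 86.5 and 23.0 FPKM in undried NST. Replicate 2 came close to the lowest undried library, and replicates 0 and 1 were far below it. The log2(FPKM + 1) difference between rehydrated and undried NST was -3.92 ± 0.78 (SE, limma adjusted p = 0.000364), and with only the compared libraries in the fit the adjusted p was 0.063. Rehydrated PST, at 19.5, 11.1 and 60.5 FPKM, and rehydrated ST, at 83.3, 69.7 and 129 FPKM, both overlapped ST at full turgor, at 115, 52.0 and 22.9 FPKM. Neither difference passed the test (limma adjusted p = 0.313 and 0.407).

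**Figure D5:**
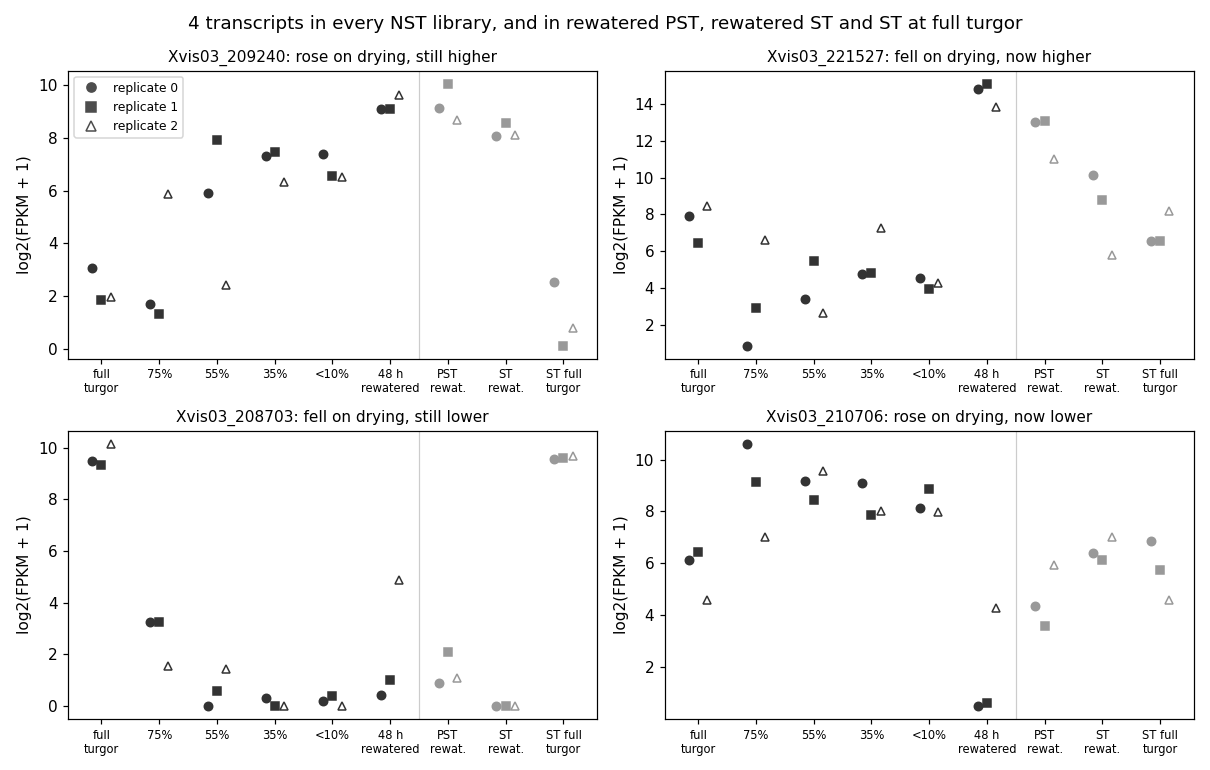
Each panel shows 1 gene, with log2(FPKM + 1) on the y axis and, on the x axis, the stages of NST in order, then rewatered PST, rewatered ST and ST at full turgor. Points are libraries. The 3 rewatered NST libraries lie apart from the 3 undried ones in each panel, by the least margin for replicate 2 of Xvis03_210706.

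The gene with the largest rise of all, singled out after its values were seen, belonged to the genes that changed in mid-drying but not in the dry leaf. It had 11640, 13194 and 6525 FPKM in rehydrated NST and between 5.14 and 15.4 FPKM in dry NST, against 3.85, 1.14 and 3.24 FPKM in undried NST. It ranked 7 in mean level in rehydrated NST. The log2(FPKM + 1) difference between rehydrated and undried NST was 11.47 ± 0.90 (SE, limma adjusted p = 4.9e-12). Rehydrated PST had between 694 and 3995 FPKM, against 0.34 to 1.27 FPKM in ST at full turgor.

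A further 3 abundant entries were listed at 0 in the 3 rehydrated NST libraries and in no other of the 51 libraries. Their means in undried NST were 10209, 3621 and 834 FPKM. All 3 counted as still lower (limma adjusted p between 2.24e-08 and 5.26e-07). In rehydrated PST the first had 14502, 21885 and 1811 FPKM, the second 6106, 7705 and 1012 FPKM, and the third 4408, 6723 and 1125 FPKM. Because tables of this kind can hold a 0 where an estimate failed, no fold is given, and whether these are such cases was not tested.

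The classes were then followed in tissue and libraries that had no part in choosing them. PST has no undried group here, so rehydrated PST and rehydrated ST were both set against ST at full turgor. Rehydrated PST had 12.4% of all tested genes higher and 16.6% lower, and rehydrated ST had 22.1% higher and 29.8% lower, with medians over all genes of -0.07 and -0.20 on the log2 scale. Genes that rose or fell in drying but lie outside the classes were not followed. The shares below are therefore not shown to be particular to genes that had not returned or had overshot.

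Most genes that NST had not returned differed the same way in the other tissue states. Of the 374 still higher genes, 284 (75.9%) were higher in rehydrated PST and 342 (91.4%) in rehydrated ST, and 0 were lower in either (limma, adjusted p under 0.05). Of the 832 still lower genes, 609 (73.2%) were lower in rehydrated PST and 786 (94.5%) in rehydrated ST, while 1 and 0 were higher. The median log2 difference of the still lower genes was -1.41 in rehydrated PST and -2.00 in rehydrated ST.

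Most genes that NST overshot were not on that side in the other tissue states. Of the 557 upward overshoot genes, 57 (10.2%) were higher and 94 (16.9%) lower in rehydrated PST, which is near the share over all genes. In rehydrated ST, 1 was higher and 369 (66.2%) were lower, with a median log2 difference of -1.10. Of the 179 downward overshoot genes, 24 were higher and 16 lower in rehydrated PST, and 115 (64.2%) were higher and 0 lower in rehydrated ST. The upward set held 21.0% ± 2.38 of the summed FPKM in rehydrated NST, 8.93% ± 5.46 in rehydrated PST, 1.13% in rehydrated ST and 4.27% in ST at full turgor (n = 3 each). Genes that differed in NST after recovery only lay between: of 585 higher genes, 133 (22.7%) were higher and 6 lower in rehydrated PST, and 82 (14%) higher and 24 lower in rehydrated ST.

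The leading transcripts of recovery were shared in part by PST. The 20 most abundant genes of rehydrated NST held 12.2%, 14.9% and 2.98% of the summed FPKM in rehydrated PST, against 4.03%, 2.71% and 4.26% in ST at full turgor, so PST replicate 2 overlapped the undried libraries. Of the 20 genes, 9 were higher in rehydrated PST and 0 lower, and in rehydrated ST 2 were higher and 2 lower.

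The difference between tissue states was also tested gene by gene, as the recovery difference of NST minus that of ST in 1 limma model. It passed an adjusted p of 0.05 in 6784 genes (36.2%), with 3843 (20.5%) higher in NST and 2941 (15.7%) lower. That balance turned with scaling, since quantile normalization moved the median difference over all genes to -0.07, against 0.17 as deposited, and gave 2951 higher and 3371 lower genes. Among the named genes it was 5.81 ± 1.82 for Xvis03_221527 (SE, limma adjusted p = 0.0114) and -4.71 ± 1.10 for Xvis03_210706 (SE, limma adjusted p = 0.000963). For Xvis03_208703 the difference of 2.07 did not pass (limma adjusted p = 0.0971), nor did that of -0.14 ± 1.48 for Xvis03_209240 (SE, limma adjusted p = 0.959).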

How the data were processed

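The authors deposited 1 table of FPKM values with 2 decimals, 1 column per library. The submitters' processing notes name Bowtie2, TopHat and Cuffdiff. Their versions, their settings and the read counts are not given in the sources, so the depth of the libraries is unknown. The relative number of fragments behind 1 unit of FPKM was taken from the steps between the lowest values. The table has 21815 entries with 21282 different IDs and no gene names, and 499 IDs occur more than once. Entries were kept apart and are called genes. Genes with at least 1 FPKM in at least 3 libraries were tested (18717, with 3098 left out). Log2(FPKM + 1) values of all 51 libraries, 1 mean per group, were fitted with limma 3.58.1 (trend, two-sided) in R 4.3.3, with Benjamini-Hochberg adjustment over all tested genes and a threshold of 0.05. Fold changes on this scale understate the change of low genes. A gene was called higher or lower past that threshold, and classes combine the calls in rehydrated and in drying NST. Groups came from the labels.

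The 4 named IDs are, per class, the largest absolute difference among called genes with an ID occurring once, no overlap, all 6 libraries above 0 and a mean of at least 10 FPKM in the higher group. The groups, classes and this rule were chosen with earlier results of these data known. Scripts were tested on simulated data. Alternatives were pseudocount, filter, scaling, library weights, a replicate block, fewer groups in the fit, another drying baseline, averaging of 2 close libraries, and leaving out each library.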

Additional observations from a re-analysis of the deposited data

Results flagged for a closer look

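For 2 of the named genes the recovery difference of NST differed from that of ST in the test of the difference itself. For Xvis03_221527 it was 5.81 higher in NST on the log2(FPKM + 1) scale (SE 1.82, limma adjusted p = 0.0114), with the rehydrated libraries above the undried ones in 3 of 3 NST libraries and overlapping in ST. For Xvis03_210706 the difference was -4.71 (SE 1.10, limma adjusted p = 0.000963), with 3 of 3 rehydrated NST libraries below the undried ones. Both genes were named for their change in NST, so neither value is independent of the choice.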

How the results depend on the processing

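The named genes kept the sign of their difference under each alternative run, while the balance of higher and lower counts did not: it turned to 1204 higher and 1353 lower with a pseudocount of 0.1, and to 1211 and 1243 with a filter of 5 FPKM. For the recovery difference of NST minus that of ST it turned to 2951 higher and 3371 lower with quantile normalization. Library weights gave 3704 higher and 3475 lower genes, with 2611 not returned, 2042 overshooting and 1403 changed after recovery only. With rehydrated replicates 0 and 1 averaged, the counts were 949, 825, 735, 389 and 460. Leaving out 1 library gave between 941 and 1993 higher, 842 and 1708 lower, 743 and 1260 not returned, 397 and 999 overshooting, and 458 and 1027 changed after recovery only. The lowest values came without rehydrated replicate 1, and the counts also moved over 1.5-fold without rehydrated replicate 0 (991 higher, 888 lower, 780 not returned, 411 overshooting, 498 after recovery only). Without undried replicate 1 they were 1101, 981, 795 and 414 for the first 4, and without undried replicate 0 overshooting genes numbered 484. The replicate numbers did not pair the samples (correlations of same-numbered libraries between -0.0925 and -0.0354), and the replicate block gave 1836 higher and 1673 lower genes. Drying measured from ST at full turgor left 1156 genes not returned and 622 overshooting. For Xvis03_210706 the difference in a fit of the compared groups alone had an adjusted p of 0.063 by limma. The same fit gave limma adjusted p-values of 0.0147 for Xvis03_208703, 0.00121 for Xvis03_209240 and 0.00604 for Xvis03_221527. In the main fit these were 3.07e-10, 6.63e-06 and 0.000139. The causes of these shifts were not tested. Of the 6 libraries, rehydrated replicates 0 and 1 had the fewest fragments behind 1 unit of FPKM. What this does to their low genes was not measured.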
